A study of Mus musculus with 10 samples.

Results

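The RNAs described here are the small structural RNAs of bone marrow cells: the 7SL RNA of the signal recognition particle, 7SK, the RNA subunits of RNase P, RNase MRP and telomerase, the small Cajal body RNAs (scaRNAs), the small nucleolar RNAs (snoRNAs) and the spliceosomal small nuclear RNAs (snRNAs). They were taken by gene symbol from a table of 55367 genes, and the name patterns matched 172 symbols. They were then selected on their summed count: those with at least 50 counts over all 10 libraries were kept, which left 27 RNAs. This minimum used the counts of both groups together and not the difference between them. The RNAs closest above it were Rnu1b2 with 57.1 and Snora9 with 69.2 counts in all, and those closest below it were Snora81 with 46.8 and Snora61 with 31.3.

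RNA came from mouse bone marrow cells labelled BMMC. One group drank regular water and the other drank water with 1% α-ketoglutarate (α-KG), a metabolite of the tricarboxylic acid cycle that many dioxygenases consume. Each group held 5 libraries, called water 1 to 5 and α-KG 1 to 5; these numbers make no pairs. The series title concerns platelet activity, inflammation and metabolism in myeloproliferative neoplasms, but the sources used here do not give the genotype, sex, age or length of treatment of the mice, nor whether each library is its own animal. Test results therefore measure the spread between these libraries.

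Structural RNAs act as the core of ribonucleoprotein particles and are not translated. 7SL forms the scaffold of the particle that brings ribosomes making secreted proteins to the endoplasmic reticulum, and 7SK holds the elongation kinase P-TEFb inactive. Box C/D snoRNAs mostly guide ribose methylation of ribosomal RNA and box H/ACA snoRNAs mostly guide pseudouridylation, while scaRNAs guide the same changes in snRNAs. Most mouse snoRNAs are cut from introns of other genes, whereas 7SL, 7SK, RNase P RNA and RNase MRP RNA are made by RNA polymerase III from their own promoters. Libraries of total RNA after removal of ribosomal RNA, as here, can hold these RNAs although they carry no poly(A) tail. The column used for extraction is of a kind that retains short RNAs poorly, but its part in the counts below was not tested.

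The RNAs that reached 50 counts were mostly longer than the other matched symbols, with exceptions within classes. Among box H/ACA snoRNAs, Snora78 (128 nt) was kept and Snora81 (178 nt) was not. Their annotated length ran from 126 to 423 nt with a median of 214 nt, against a median of 94 nt for the other 145 symbols. Of 90 symbols under 100 nt, 0 reached the minimum, 82 were at 0 in every library and the highest summed to 11 counts. Those at 0 include the numbered series of Snord116l symbols, each 94 nt long, which is also the median given above. Of 64 symbols of at least 100 nt but under 200 nt, 11 were kept, and of 18 symbols of 200 nt or more, 16 were kept. The rule used counts, so this relation to length describes which RNAs these libraries show and not how abundant each RNA is in the cells. Among the RNAs not kept, 105 were at 0 in all libraries. They include snRNAs such as Rnu6, Rnu7 and Rnu11. Both Y RNAs, partners of the Ro protein, were under the minimum, and together they summed to 13 counts.

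**Figure D1:**
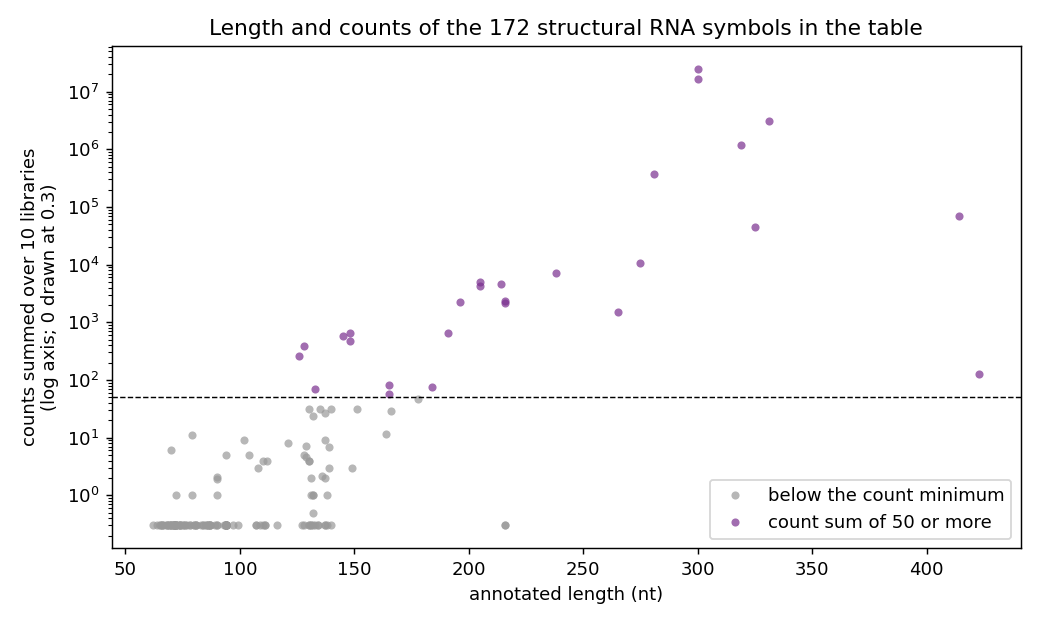
Annotated length in nucleotides (horizontal axis) against counts summed over the 10 libraries (vertical log axis, values of 0 drawn at 0.3) for the 172 matched symbols, each point 1 symbol; the dashed line is the minimum of 50 counts. All points above the line are at least 126 nt long, and most points under 100 nt lie at 0.

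Some of these RNAs share their sequence with another row of the table, which limits what a row can show. The 7SL rows Rn7s1 and Rn7s2 were identical over all 300 nt, so the split of counts between them rests on how reads were assigned. The U3 rows Rnu3b1 and Rnu3b3 were identical over 216 nt, and the U1 rows Rnu1b1 and Rnu1b2 were identical over 165 nt. Snora73a (chr4:132352775-132352979) and Snora73b (chr4:132352322-132352526), both on the minus strand of GRCm38, matched at 198 of 205 positions (96.6%). They are shown because their counts ran apart, and capitals mark the 7 positions at which they differ.
Snora73a: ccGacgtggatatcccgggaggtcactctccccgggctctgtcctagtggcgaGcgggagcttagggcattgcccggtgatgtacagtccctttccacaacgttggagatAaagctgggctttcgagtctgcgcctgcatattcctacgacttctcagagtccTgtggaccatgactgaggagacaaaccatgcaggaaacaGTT
Snora73b: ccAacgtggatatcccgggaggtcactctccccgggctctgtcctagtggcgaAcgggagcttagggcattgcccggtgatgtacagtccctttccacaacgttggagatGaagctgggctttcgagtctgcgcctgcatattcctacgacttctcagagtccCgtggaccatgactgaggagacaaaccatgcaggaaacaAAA
Counted from 1 at the 5′ end, with the base of Snora73a first, the differences are G3A, G54A, A111G, T164C, G203A, T204A and T205A. Both end in the ACA box followed by 3 bases, and the last 3 differences fill those bases. Reads that cover none of these positions cannot be assigned to either copy by sequence.

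The class names of the snoRNAs were checked against their boxes on the transcript strand. A box C/D snoRNA carries a C box, usually near its start and here searched as TGATGA anywhere in the RNA, and a D box near its end, searched as CTGA in the last 15 bases. The D box was found in 7 of 7 box C/D snoRNAs, against 7.09% to 8.13% of the first bases of long intergenic RNAs cut to the same lengths. TGATGA was found in 6 of 7, against 4.73% to 9.21% of those windows, and Snord22 was the one without these letters. The letters began at position 7 in Snord17 and Snord15b and at position 15 in Snord15a, but at position 156 in Rnu3a and 157 in Rnu3b1 and Rnu3b3, in the later part of these RNAs. The 4 below are shown to let the boxes be compared, with TGATGA and the terminal CTGA in capitals. They lie at chr7:99482785-99482932 (Snord15a, minus), chr7:99479563-99479707 (Snord15b, minus), chr19:8725866-8725991 (Snord22, plus) and chr11:87443237-87443452 (Rnu3b1, plus).
Snord15a: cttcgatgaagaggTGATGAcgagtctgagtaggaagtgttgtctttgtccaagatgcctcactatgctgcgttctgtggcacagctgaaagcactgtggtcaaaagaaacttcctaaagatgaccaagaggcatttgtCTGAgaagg
Snord15b: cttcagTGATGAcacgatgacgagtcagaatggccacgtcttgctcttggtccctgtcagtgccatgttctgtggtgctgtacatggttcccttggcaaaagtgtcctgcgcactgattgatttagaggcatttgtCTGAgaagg
Snord22: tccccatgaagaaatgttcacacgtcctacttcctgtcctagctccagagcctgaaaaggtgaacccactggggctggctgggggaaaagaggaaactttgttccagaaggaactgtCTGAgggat
Rnu3b1: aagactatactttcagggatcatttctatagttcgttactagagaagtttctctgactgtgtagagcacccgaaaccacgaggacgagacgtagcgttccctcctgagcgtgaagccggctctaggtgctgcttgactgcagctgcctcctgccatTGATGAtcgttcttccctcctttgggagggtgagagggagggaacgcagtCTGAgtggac
Snord15a and Snord15b, both within Rps3, were 62.4% identical over their alignment, so unlike the pairs above they can be told apart by most reads. All 7 box H/ACA snoRNAs had ACA in their last 6 bases, against 6.73% to 10.04% of the windows. Among the 4 scaRNAs, Scarna2, Scarna6 and Scarna10 held TGATGA and a terminal CTGA, and Scarna13 held the terminal ACA. In windows of the same lengths TGATGA occurred in 10.1% to 20.3%, terminal CTGA in 6.86% to 8.95% and terminal ACA in 7.71% to 11.7%. TGATGA began at position 346 in Scarna2, where 20.3% of windows held it, so that match says little.

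7SL dominated the class and much of the library. Its 2 rows took 7.56%, 16.3%, 17.3%, 16.8% and 24.2% of all counts in water 1 to 5, and 24.0%, 27.5%, 31.0%, 27.1% and 26.7% in α-KG 1 to 5. The mean was 16.4% ± 5.92 (SD, n = 5) in water and 27.2% ± 2.50 in α-KG. Water 1 was far below the rest, and water 5 lay inside the α-KG range. Within the 27 RNAs, 7SL made up 73.9% to 95.2% of the counts of a library. The other 25 took 2.76% ± 0.144 of all counts in water and 2.10% ± 0.434 in α-KG. The scaRNAs, snoRNAs, snRNAs and telomerase RNA together gave only 0.173% to 0.719% of the counts of the 27. Shares are parts of 1 total, so a larger share of 7SL leaves less for all other genes together, though not for each of them. 7SK took 1.64% to 1.90% in water and 0.965% to 1.56% in α-KG, with no overlap. The mean difference for 7SK was -0.48 percentage points of all counts, and -0.35 points when 7SL was left out of the total. With 7SL left out, the 7SK shares of the groups overlapped.

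**Figure D2:**
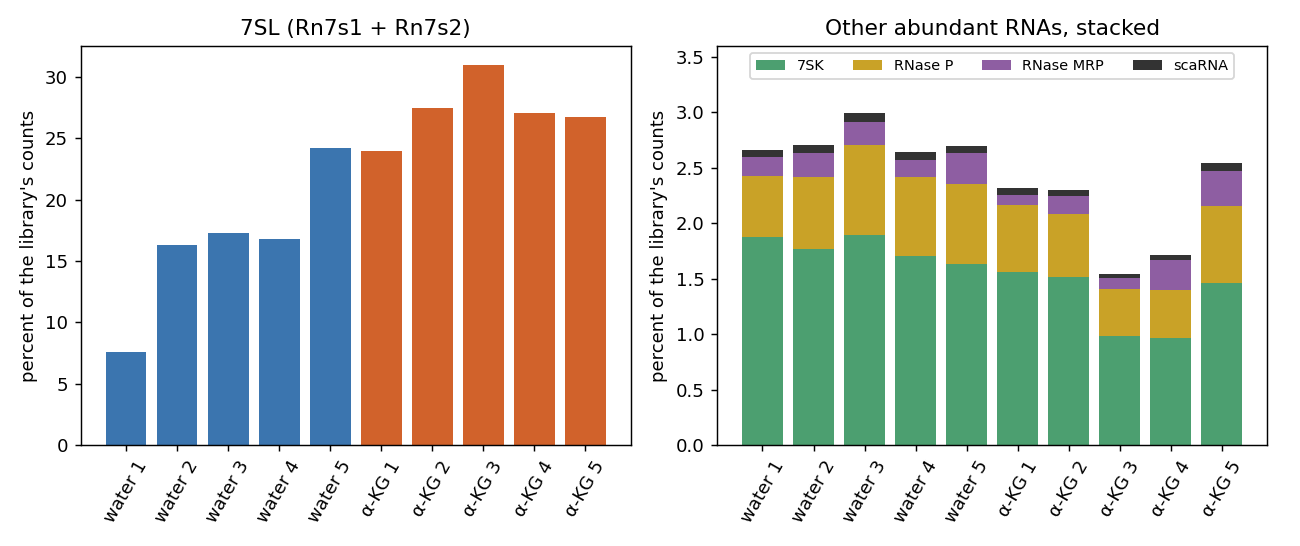
Percent of each library's counts taken by 7SL (left panel) and by 7SK, RNase P RNA, RNase MRP RNA and the 4 scaRNAs stacked (right panel); each bar is 1 library, water in blue and α-KG in orange on the left. The 7SL bars run from 7.56% to 24.2% in water and from 24.0% to 31.0% in α-KG.

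The rest of each library also differed. The share of protein-coding genes was 55.8% ± 10.9 in the water group and 46.0% ± 4.70 in the α-KG group (SD, n = 5 each), with 72.2% in water 1 and 42.2% in water 5. The ribosomal RNA locus CT010467.1 took 11.1% ± 5.87 and 10.7% ± 6.30. Library totals ran from 14291364 to 22490118 counts and the scaling factors of TMM normalisation from 0.737 to 1.44. Of 4 monocyte markers, 3 were called higher in α-KG (F13a1, Csf1r and Ccr2), where 2.39% of all genes were. The list median log2 fold change was 1.15. The 4 summed to 158 to 205 CPM (counts per 1e+06 counts after scaling) in water and 209 to 414 in α-KG. Of 4 erythroid markers 0 passed the test, with summed levels of 12908 to 35090 and 13320 to 49618 CPM. Of 8 markers of marrow blood cells 1 was called higher, the T cell gene Cd3e. With water 1, water 2, water 4 or α-KG 4 left out, 0 of all genes were called higher, so these calls were lost. Among markers of tissues outside marrow, Ins2 was at 0 and Alb at no more than 0.0720 CPM. The muscle genes Acta1 and Ckm reached 4.10 and 1.58 CPM in single libraries. The 4 genes summed to 0.429 to 3.13 CPM in water and 0.0389 to 5.68 CPM in α-KG. The part of cell composition, of library composition or of water 1 and water 5 in the differences below was not tested except by leaving libraries out. In bulk RNA, fewer cells of a type and less RNA per cell cannot be told apart.

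No structural RNA passed the test between the groups. Of the 27, 22 had enough counts to be tested with edgeR's quasi-likelihood F test, and 0 of 22 had an adjusted p under 0.05, where 2.73% of all 15126 tested genes did. At an unadjusted p under 0.05 there was 1, Snora73b, against 27.8% of all genes. DESeq2 called 0 of the 25 RNAs to which it gave an adjusted p (lowest 0.0768, and 4 at an unadjusted p under 0.05), against 10.4% of all genes, and limma voom called 0 of 22 (lowest 0.134, and 5 unadjusted), against 1.77%. In 0 of 22 did the 5 α-KG libraries lie wholly above or below the 5 water libraries, against 5.65% of all genes. The fold changes lay above 0 for 14 and below 0 for 8, with a median log2 fold change of 0.20 where that of all genes was 0.02. Their errors were large: the median standard error (SE) of the log2 fold change was 0.41 for these RNAs and 0.21 for all genes. A difference that missed the threshold here is thus not shown to be absent. The direction of each fold change is given below with its 95% interval where the RNA matters most.

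**Figure D3:**
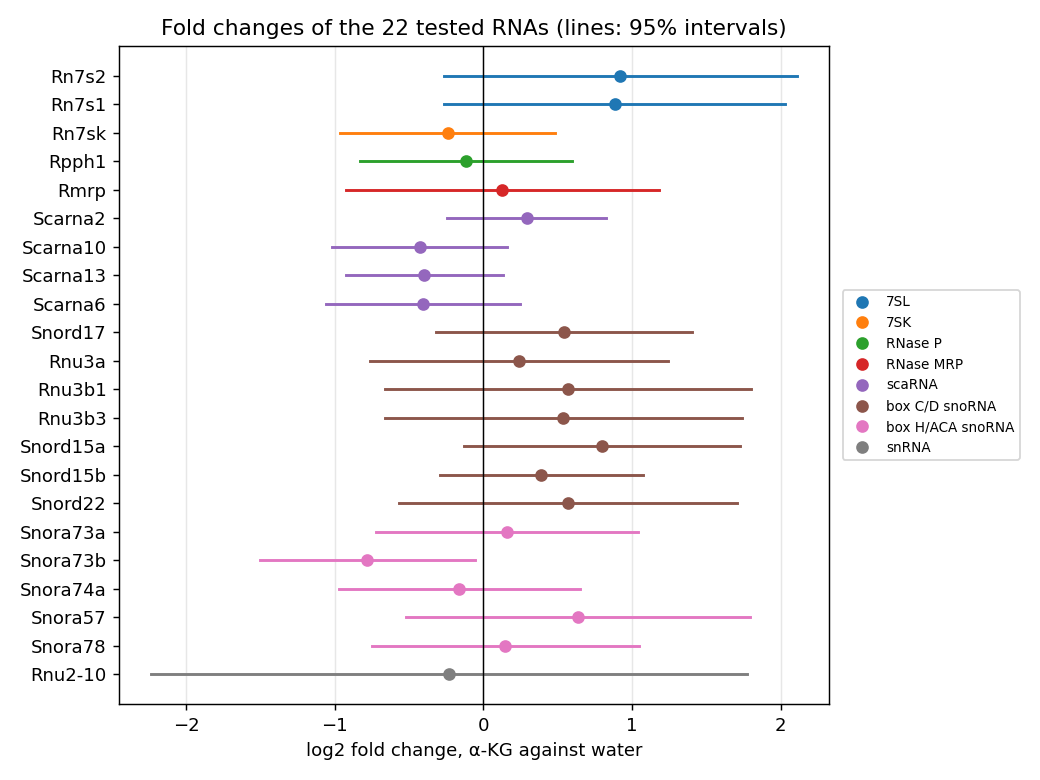
Log2 fold change of α-KG against water (points) with 95% intervals (lines) from edgeR for the 22 tested RNAs, coloured by class; the vertical line is no change. Only the interval of Snora73b, from -1.50 to -0.06, leaves out 0.

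Levels per length ranked the RNAs, although many neighbours overlapped. The order of Rn7s2 and Rn7s1, which are identical in sequence, rests on how reads were assigned. As the mean of 10 libraries in CPM per kilobase of RNA, Rn7s2 stood at 471353 and Rn7s1 at 309265, followed by Rn7sk at 46215, Rpph1 at 19549 and Rmrp at 7432. Next came Scarna2 at 881, Scarna10 at 711 and Scarna13 at 200. The best covered snoRNAs were Snord17 at 160, Snora73a at 135, Rnu3a at 117 and Snora73b at 107 CPM per kilobase, and Terc closed the order at 1.47. On this scale the libraries of Rn7s1 and Rn7sk did not overlap, nor did those of Rn7sk and Rpph1, of Rmrp and Scarna2, or of Scarna10 and Scarna13. The libraries of Rn7s2 and Rn7s1, of Rpph1 and Rmrp, of Scarna2 and Scarna10, of Scarna13 and Snord17, and of neighbouring snoRNAs did overlap.

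**Figure D4:**
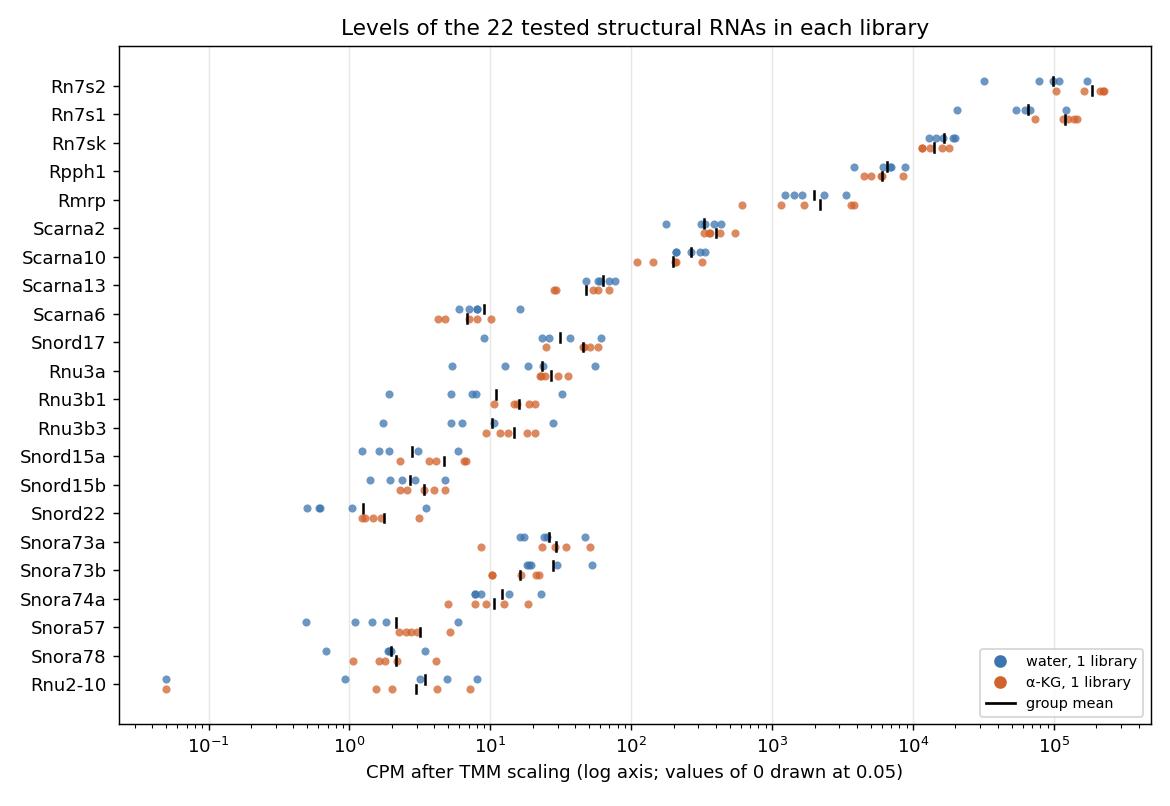
CPM after TMM scaling (horizontal log axis, values of 0 drawn at 0.05) of the 22 tested RNAs; each point is 1 library, water in blue and α-KG in orange, and black ticks are group means. For every RNA the groups overlap, and the lowest and highest water points are mostly water 1 and water 5.

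Water 1 and water 5 set the ends of most of these RNAs. After TMM scaling, water 1 was the lowest of all 10 libraries for 12 of 22 RNAs, and water 5 was the highest of all 10 for 13. Within the α-KG group, α-KG 1 was the lowest for 14 and α-KG 5 the highest for 14. On library totals without TMM factors, water 1 was the lowest of 10 for 9 RNAs and water 5 the highest for 7.

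7SL is the RNA core of the signal recognition particle, and its rows had the largest fold changes of the class. Rn7s1 stood at 20473, 68070, 53537, 62283 and 121662 CPM in water 1 to 5, and at 73858, 126743, 139407, 146266 and 115496 CPM in α-KG 1 to 5. Rn7s2 stood at 32080, 108461, 78546, 97972 and 171411 CPM in water, and at 102817, 164564, 225139, 221241 and 211829 CPM in α-KG. Water 5 was above 2 of the α-KG libraries in both rows, and α-KG 1 was below water 5 in both. The log2 fold change was 0.88 ± 0.53 (SE; interval -0.26 to 2.03, adjusted p = 0.282) for Rn7s1 and 0.92 ± 0.55 (-0.26 to 2.11, adjusted p = 0.279) for Rn7s2. With both copies summed the means were 162899 ± 86983 CPM (water) and 305472 ± 78430 CPM (α-KG; SD, n = 5 each), and the log2 fold change was 0.91 ± 0.58 (adjusted p = 0.312). Without water 5 the log2 fold change of Rn7s1 was 1.24 and without water 1 it was 0.66. Its adjusted p stayed above the threshold in both. Of the protein genes of the particle, 0 of 10 tested were called, against 2.73% of all genes, with a median log2 fold change of -0.09. Srp72, a large subunit that binds the RNA, was at -0.24 ± 0.14 (adjusted p = 0.279), and Srprb, part of the membrane receptor, at 0.20 ± 0.13 (adjusted p = 0.313).

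7SK was among the steadiest of these RNAs. Rn7sk (chr9:78175303-78175633, minus strand, GRCm38) stood at 13062, 19200, 14472, 16267 and 19813 CPM in water, and at 11503, 16086, 11538, 13111 and 17920 CPM in α-KG. The ranges overlapped over most of their width, and the log2 fold change was -0.24 ± 0.33 (interval -0.96 to 0.48, adjusted p = 0.648). Its first 100 bases are shown with the letters GATC in capitals. They occur 3 times in the RNA, all in this stretch, near where HEXIM proteins are known to bind, and GATC occurs in 61.0% of long intergenic RNA windows of the full 331 nt.
Rn7sk: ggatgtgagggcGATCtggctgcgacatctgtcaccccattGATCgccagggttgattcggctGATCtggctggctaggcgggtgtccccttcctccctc

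The proteins of the 7SK particle and of P-TEFb gave 0 of 7 called, against 2.73% of all genes, and 5 of 7 had an unadjusted p under 0.05, against 27.8% of all genes. The kinase Cdk9 stood at 46.4 ± 1.81 CPM in water and 57.2 ± 3.0 CPM in α-KG (SD, n = 5 each), with no overlap and a log2 fold change of 0.30 ± 0.09 (adjusted p = 0.0834). The other 6 lay below 0, among them its partner cyclin Ccnt1 at -0.34 ± 0.11 (adjusted p = 0.0861) and the inhibitors Hexim1 at -0.44 ± 0.16 (adjusted p = 0.109) and Hexim2 at -0.66 ± 0.22 (adjusted p = 0.0938). The list median was -0.29. Larp7, which stabilises 7SK, was at -0.14 ± 0.13, and Mepce, which caps it, at -0.13 ± 0.12. Larp7, Mepce, Hexim1 and Hexim2 are named here after their values were seen.

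RNase P RNA, which cuts the leader from precursor tRNAs, stood next in level. Rpph1 (chr14:50807449-50807767, minus strand) was at 3788, 6976, 6139, 6826 and 8716 CPM in water, and at 4481, 6065, 4998, 5877 and 8495 CPM in α-KG. The lowest and the highest value were both from water, and the log2 fold change was -0.12 ± 0.33 (interval -0.83 to 0.60, adjusted p = 0.834). RNase MRP RNA, which takes part in ribosomal RNA processing, varied more. Rmrp (chr4:43492783-43493063, minus strand) was at 1227, 2339, 1636, 1437 and 3335 CPM in water, and at 613, 1675, 1153, 3649 and 3817 CPM in α-KG. The α-KG libraries fell into 3 at or below 1675 CPM and 2 above every water library, a 6.23-fold range. The log2 fold change was 0.13 ± 0.49 (interval -0.92 to 1.18, adjusted p = 0.880), and its sign turned under several alternatives. Rmrp overlaps an exon of Ccdc107 on the opposite strand, and whether counting used strand is not known here, but Ccdc107 stood at 4.79 and 3.96 CPM, far below Rmrp.

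Among the protein subunits of RNase P and RNase MRP, 1 of 10 tested genes fell and 0 rose, where 0.344% of all genes fell. Pop5, a core subunit of both, stood at 15 ± 2.0 CPM in water and 8.66 ± 2.37 CPM in α-KG (SD, n = 5 each) without overlap, a log2 fold change of -0.79 ± 0.18 (adjusted p = 0.0436). The count went to 0 when any 1 of 8 libraries was left out (all but water 3 and α-KG 2). The other members did not follow it: 8 of 10 had a fold change above 0, the list median was 0.18 and Rpp14 was at 0.36 (adjusted p = 0.252).

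Telomerase RNA was near the limit of detection. Terc (chr3:96414437-96414859, minus strand), the template of telomere repeats, had 0, 0, 22, 7.7 and 0 counts in water and 57.6, 8.5, 0, 7.8 and 22.8 counts in α-KG. It was at 0 in 3 water libraries and 1 α-KG library, and it was too low to be tested. A count of 0 does not show that the RNA is absent. Among 6 genes of telomerase and the Cajal body, the nuclear body where telomerase and scaRNAs gather, 1 rose (background for a rise 2.39%) and 0 fell. Tep1, a telomerase- and vault-associated protein, stood at 17.3 ± 3.41 CPM in water and 32.9 ± 9.11 CPM in α-KG (SD, n = 5 each), with overlap and a log2 fold change of 0.93 ± 0.20 (adjusted p = 0.0356). Its list also had a count of 0 when any 1 of the same 8 libraries was left out. Pinx1, an inhibitor of telomerase, was at 0.59 (adjusted p = 0.148), and the list median was 0.21.

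The 4 scaRNAs lay on both sides of 0, and 0 of 4 passed. Scarna2 (chr3:108554338-108554751, minus strand), which guides changes in U2 snRNA, stood at 177, 386, 312, 332 and 432 CPM in water and at 356, 363, 326, 424 and 541 CPM in α-KG. All α-KG libraries were above 2 of the water libraries, and the log2 fold change was 0.29 ± 0.25 (interval -0.24 to 0.83, adjusted p = 0.442). Scarna10 (chr6:125186359-125186683, minus strand), known as U85 and lying within Ncapd2, stood at 209, 335, 208, 266 and 308 CPM in water and at 110, 208, 143, 205 and 318 CPM in α-KG. Of its α-KG values 3 were below every water value, α-KG 2 was level with the lowest of them and α-KG 5 was within their range, and the log2 fold change was -0.43 ± 0.27 (-1.01 to 0.16, adjusted p = 0.305). Scarna13 (chr12:105031075-105031349, minus strand) stood at 47.9, 69.95, 58.2, 60.2 and 76.7 CPM in water and at 28.2, 53.3, 29.5, 58.0 and 69.1 CPM in α-KG, a log2 fold change of -0.40 ± 0.24 (adjusted p = 0.295). As with Scarna10, its lowest values were α-KG 1 and α-KG 3. Scarna6 (chr1:87784556-87784820, plus strand) stood at 5.97 to 16.3 CPM in water and 4.24 to 10.1 CPM in α-KG, a log2 fold change of -0.41 ± 0.30 (adjusted p = 0.382).

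The 7 tested box C/D snoRNAs all had a fold change above 0, as did 51.7% of all genes, with a median log2 fold change of 0.54, and 0 of 7 passed. The 7 include the identical rows Rnu3b1 and Rnu3b3, and Rnu3a was at -0.017 without water 1. Snord17 (chr2:144265979-144266216, minus strand), a guide for large-subunit ribosomal RNA in an intron of Snx5, stood at 9.0, 36.6, 23.2, 25.9 and 61.0 CPM in water and at 51.0, 58.2, 45.7, 24.7 and 46.0 CPM in α-KG. In α-KG 4 of the 5 values were above all water values but water 5, and the log2 fold change was 0.54 ± 0.40 (adjusted p = 0.373). Snord15a, also a guide for large-subunit ribosomal RNA, had the smallest p of the class. It stood at 1.24, 3.08, 1.63, 1.92 and 5.93 CPM in water and at 2.29, 6.52, 3.66, 4.09 and 6.76 CPM in α-KG, a log2 fold change of 0.80 ± 0.43 (interval -0.13 to 1.73, adjusted p = 0.236). Snord15b, its neighbour in the same gene, stood at 1.39, 2.93, 1.95, 2.34 and 4.79 CPM in water and at 4.01, 4.74, 2.30, 2.57 and 3.38 CPM in α-KG, a log2 fold change of 0.39 ± 0.32 (adjusted p = 0.422). The Snord15 pair was near 1 to 1 in water, with a Snord15a to Snord15b ratio of 0.823 to 1.24, and spread from 0.572 to 2 in α-KG. Snord22, which takes part in processing of small-subunit ribosomal RNA, stood at 0.497 to 3.50 CPM in water and 1.24 to 3.09 CPM in α-KG, a log2 fold change of 0.57 ± 0.52 (adjusted p = 0.484), which was 1.35 without water 5 and 0.27 without α-KG 5.

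U3 takes part in cutting the ribosomal RNA precursor and does not guide methylation. Rnu3a stood at 5.38, 18.6, 12.6, 23.6 and 55.7 CPM in water and at 23.0, 30.3, 24.6, 22.3 and 35.4 CPM in α-KG, a log2 fold change of 0.24 ± 0.46 (adjusted p = 0.750). Rnu3b1 stood at 1.92, 7.40, 5.26, 7.97 and 32.5 CPM in water and at 10.7, 18.7, 15.3, 14.6 and 20.6 CPM in α-KG, a log2 fold change of 0.57 ± 0.56 (adjusted p = 0.516). The water libraries of Rnu3b1 spanned 16.9-fold and the α-KG libraries 1.93-fold, and 4 water libraries lay below every α-KG library while water 5 lay above them all. Its log2 fold change was 1.51 (adjusted p = 0.0852) without water 5, 0.29 (adjusted p = 0.717) without water 1 and 0.39 (adjusted p = 0.669) without water 3. Its identical copy Rnu3b3 was at 0.54 ± 0.55, and the 2 copies summed were at 0.54 ± 0.55 as well (adjusted p = 0.530). The protein partners of box C/D snoRNAs gave 0 of 10 called, against 2.73% of all genes, with a median log2 fold change of 0.10. The assembly factor Nufip1 was at 0.31 ± 0.18 (adjusted p = 0.274) and Fbl, the methylase fibrillarin, at 0.20 ± 0.12 (adjusted p = 0.284).

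The box H/ACA snoRNAs were mixed, with 3 of 5 tested above 0 and a median log2 fold change of 0.15. Snora73a and Snora73b, known as U17, take part in processing of the ribosomal RNA precursor. Snora73b stood at 19.4, 29.9, 18.2, 18.9 and 52.5 CPM in water and at 10.3, 22.3, 10.3, 16.5 and 21.1 CPM in α-KG. Of the α-KG values 3 were below every water value, and the log2 fold change was -0.78 ± 0.33 (interval -1.50 to -0.06, adjusted p = 0.155 by edgeR). It moved to -0.42 (adjusted p = 0.346) without water 5, and passed only on library totals without TMM factors, at -0.96 (adjusted p = 0.0159). Snora73a stood at 16.3, 25.4, 17.3, 24.2 and 47.3 CPM in water and at 8.59, 28.9, 23.3, 34.3 and 50.7 CPM in α-KG, a log2 fold change of 0.16 ± 0.40 (adjusted p = 0.813). α-KG 1 was the lowest library in both copies, and in the other 4 α-KG libraries Snora73a was the higher copy.

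Snora57 stood at 0.495, 1.44, 1.10, 1.83 and 5.86 CPM in water and at 2.26, 5.18, 2.54, 2.76 and 3.02 CPM in α-KG, a log2 fold change of 0.64 ± 0.53 (adjusted p = 0.440). Every α-KG value was above 4 of the 5 water values and below water 5. The log2 fold change was 1.401 without water 5, 0.36 without water 1 and 0.37 without α-KG 2. Snora74a ran from 7.75 to 22.9 CPM in water and from 5.04 to 18.5 CPM in α-KG, a log2 fold change of -0.16 ± 0.37 (adjusted p = 0.798). Snora78 was at 0.15 ± 0.41 (adjusted p = 0.832). Snora23 and Snora9 were not tested: they had 3 to 14 and 0 to 19.2 counts in a library. The box H/ACA protein list gave 0 of 8 called, against 2.73% of all genes. It holds particle proteins, among them the pseudouridine synthase dyskerin, and also assembly and nucleolar factors. The list median was 0.03. Tcof1, a nucleolar factor of ribosome biogenesis, was at 0.63 ± 0.18 (adjusted p = 0.0662) and the assembly factor Naf1 at 0.35 (adjusted p = 0.165).

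The snRNA rows named in the class were a small part of their families. Rnu1b1 (chr3:96359953-96360117, minus strand) starts with the letters that pair with the 5′ splice site, in capitals below, which occur in 0.0552% of long intergenic RNA windows of that length.
Rnu1b1: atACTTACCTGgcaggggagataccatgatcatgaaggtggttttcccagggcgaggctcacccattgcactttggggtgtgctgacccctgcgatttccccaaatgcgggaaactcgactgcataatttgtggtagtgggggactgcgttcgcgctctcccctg
Rnu1b1 and Rnu1b2 summed to only 83.4 and 57.1 counts over 10 libraries and were not tested. In water 5, Rnu1b1 had 0 counts and Rnu1b2 had 41.7, while in water 2 Rnu1b1 had 19.2 and Rnu1b2 had 0, which for identical rows describes the assignment of reads. At least 90% identity over at least 90% of the length joined 31 U1 rows, most with predicted-gene names, which held 13945 counts in all, with Gm22513 leading at 3945. The U1 family as a whole stood at 76.2 ± 53.1 CPM in water and 82.0 ± 50.8 CPM in α-KG (SD, n = 5 each), a difference well inside the spread. The U2 family of 14 rows held 16938 counts, of which Rnu2-10 had 661 and Gm25939 6087, and stood at 94.2 ± 41.1 and 79.2 ± 37.8 CPM. Rnu2-10 alone was at 4.92, 3.18, 0.924, 8.06 and 0 CPM in water and at 1.56, 0, 7.20, 2.0 and 4.17 CPM in α-KG, a log2 fold change of -0.23 ± 0.92 (adjusted p = 0.887). The proteins of the spliceosomal particles gave 0 of 28 called, against 2.73% of all genes, with 22 below 0 and a median of -0.15. Gemin2, an assembly factor, was at -0.49 (adjusted p = 0.156) and the core protein gene Snrpe at -0.31 (adjusted p = 0.187).

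Ratios of 2 RNAs within a library do not depend on scaling and set the RNAs against each other. Over all pairs of the 22 tested RNAs, the groups did not overlap in 26 of 231 ratios (11.3%), against 5.22% of all pairs of tested genes. The pairs share RNAs and are not independent, so this is a description. Snora73b was in 10 of the 26, Rn7s2 in 6, Scarna2 in 5 and Rn7s1 and Scarna6 in 4 each, while Rmrp, Rnu2-10, Snora73a and Snora78 were in 0. The ratios below were chosen after their values were seen.

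The 7SL to 7SK ratio was 4.02, 9.19, 9.13, 9.85 and 14.8 in water and 15.4, 18.1, 31.6, 28.0 and 18.3 in α-KG, with means of 9.40 ± 3.82 and 22.3 ± 7.09 (SD, n = 5 each). The lowest α-KG value lay just above water 5, so the groups were separate but close. The 7SL to Rpph1 ratio was 13.9 to 33.6 in water and 38.5 to 72.9 in α-KG, also without overlap. The 7SL to Rmrp and the 7SL to Scarna2 ratios overlapped. Rn7sk to Rpph1 was stable, at 2.27 to 3.45 in water and 2.11 to 2.65 in α-KG.

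The Scarna10 to Scarna2 ratio was 1.18, 0.867, 0.665, 0.800 and 0.714 in water and 0.308, 0.574, 0.440, 0.484 and 0.587 in α-KG, with means of 0.845 ± 0.202 and 0.479 ± 0.114 (SD, n = 5 each). Every α-KG library was below every water library. The Scarna13 to Scarna10 ratio covered nearly the same range in both groups, at 0.209 to 0.280 and 0.206 to 0.282. The Snora73b to Snora73a ratio was 1.19, 1.18, 1.05, 0.781 and 1.11 in water and 1.20, 0.771, 0.445, 0.482 and 0.416 in α-KG. In 4 α-KG libraries it was below every water library, and α-KG 1 was the highest of all 10. As the copies differ at 7 of 205 positions, this ratio rests on the reads over those positions.

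**Figure D5:**
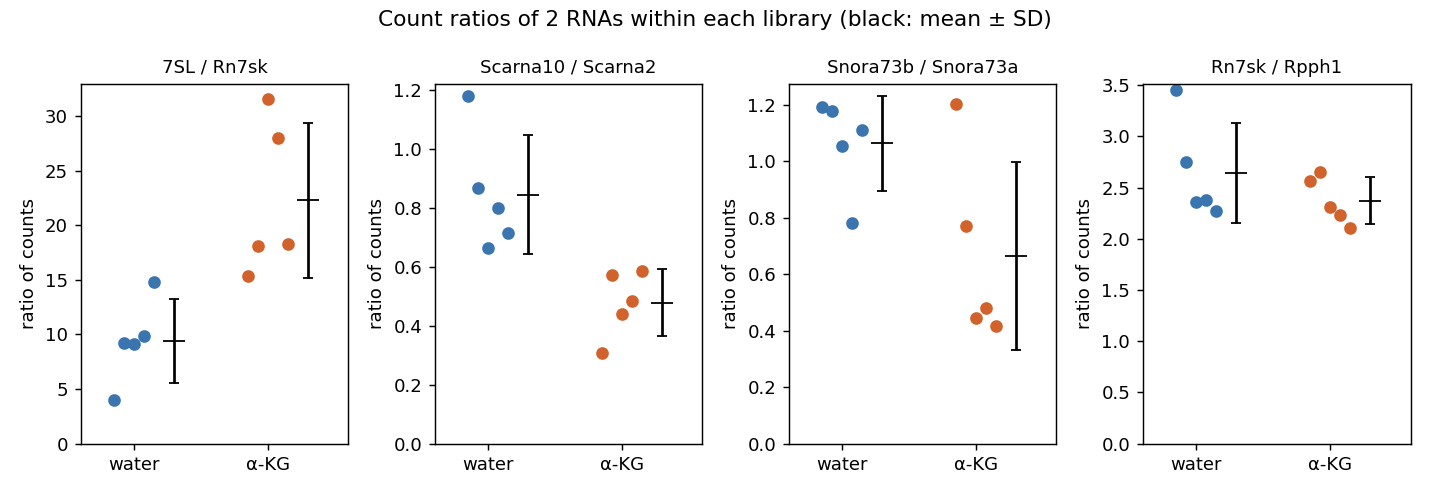
Ratio of counts of 2 RNAs within each library (vertical axes, starting at 0) for 4 pairs; points are libraries in the order 1 to 5, and black marks are the mean ± SD of 5. The groups are apart for 7SL / Rn7sk and Scarna10 / Scarna2 and overlap for the other pairs.

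Host genes were set beside the RNAs that lie within them, in introns or exons. Host here means only an annotated gene around the RNA on the same strand. Whether the RNA is cut from that gene's transcript was not tested. Of the 27 RNAs, 16 lay within another gene on the same strand, and 11 tested RNAs had a tested host among 8 genes. Of those hosts 0 were called, against 2.73% of all genes, and their log2 fold changes ran from -0.78 to 0.29. The RNA and its host had the same sign in 7 of 11 and opposite signs in 4. The 7 include the identical rows Rnu3b1 and Rnu3b3, both with Tex14 (log2 fold change 0.03 ± 0.44). Rcc1 and Rps3 were also counted more than once each, so the pairs are not independent. The opposite pairs were Snora73a with Rcc1 (-0.29 ± 0.14), Snord15a and Snord15b with the ribosomal protein gene Rps3 (-0.25 ± 0.17), and Snord22 with Snhg1 (-0.42 ± 0.15, adjusted p = 0.109). Snora73a and Snora73b lie in the same hosts, Rcc1 and Snhg3, and had fold changes of opposite sign. Scarna10 lay with Ncapd2, a condensin subunit that stood at 309.9 CPM in water and 180 CPM in α-KG (log2 fold change -0.78 ± 0.25, adjusted p = 0.0840). Scarna10 lies in an annotated exon of Ncapd2, Snord15b in one of Rps3, Snord22 in one of Snhg1 and Snora73a in one of Snhg3, so reads of these RNAs and their hosts cannot be fully separated. Rps3 at 206 CPM and Snhg1 at 42.9 CPM in water were far above the snoRNAs they hold. Snord17 and Snx5 were both above 0, Snx5 at 0.29 ± 0.14 (adjusted p = 0.193).

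Genes that transcribe, hold or bind these RNAs did not pass in the lists below, where 2.73% of all tested genes did. RNA polymerase III makes 7SL, 7SK, RNase P RNA and RNase MRP RNA. The genes of the polymerase and its factors gave 0 of 22 called, with 16 below 0 and a median log2 fold change of -0.12. The subunit Polr3g was at -0.48 ± 0.16 (adjusted p = 0.0956) without overlap, and Gtf3c4 at -0.37 (adjusted p = 0.134). The factors of snRNA genes gave 0 of 19 called with a median of -0.09. The octamer-binding factor Pou2f1 stood at 38.2 ± 2.20 CPM in water and 28.6 ± 3.8 CPM in α-KG (SD, n = 5 each) without overlap (log2 fold change -0.41 ± 0.11, adjusted p = 0.0659), and the Integrator subunit Ints9 was at -0.36 (adjusted p = 0.0973). Non-coding snoRNA hosts gave 0 of 11 called with a median of -0.26. Snhg8 stood at 12.4 ± 1.55 CPM in water and 8.50 ± 1.56 CPM in α-KG without overlap (-0.54 ± 0.15, adjusted p = 0.0620), and Gas5, chosen after its values were seen, was at -0.33 ± 0.12 (adjusted p = 0.113), also without overlap. Ro60 and Ssb, the Ro and La proteins that bind Y RNAs and polymerase III transcripts, were at 0.17 (adjusted p = 0.738) and -0.20 (adjusted p = 0.282).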

How the data were processed

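RNA was sequenced from 10 mouse bone marrow samples, 5 on regular water and 5 on α-KG, after column extraction with DNase, ribosomal RNA removal with RNase H and Illumina sequencing, per the labels' protocols. The submitters' processing notes name bcl2fastq and DRAGEN and the build GRCm38; the sources used here do not give the annotation release, quantifier or strand option. The authors deposited expected counts per gene, unscaled, of which 10.3% of values are not whole.

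Counts were rounded, filtered with filterByExpr (minimum count 10, minimum total 15) and tested with edgeR 4.0.16 in R 4.3.3: TMM scaling, robust quasi-likelihood F test, two-sided, Benjamini-Hochberg over all 15126 genes tested, threshold 0.05. SE is the absolute log2 fold change over the square root of F. CPM are per 1e+06 counts after TMM scaling, with SD. The steps were tested on simulated data.

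Positions, lengths, hosts and sequences came from GENCODE M21 on GRCm38, where all 172 symbols matched. Near copies were found with BLAST 2.17.0 and aligned with Biopython 1.88. Motifs were searched on the transcript strand only and compared with the first bases of long intergenic RNAs.

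The RNAs, the gene lists and the tests were chosen with earlier results of these data known. The naming rule took all 7SL, 7SK, RNase P, RNase MRP, telomerase and Y RNAs, the 3 highest and the 3 of smallest p in every other class, and in each protein list those past the threshold and the 2 of smallest p; other names are given to account for all RNAs or were chosen after their values were seen. Alternatives were other scalings, no filter, DESeq2 1.42.0, limma voom 3.58.1 and each library left out. Merging identical copies, and leaving out water 1 with water 5, were added after seeing the data.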

Additional observations from a re-analysis of the deposited data

Results flagged for a closer look

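In 44 sets of 5 values (22 RNAs in each group), 6 values stood far from the others by Dixon's criterion. For independent, normally distributed values, chance gives this in about 1 of 20 sets. These sets share libraries, and water 5 was the highest water library for 20 of 22 RNAs, so that rate does not apply. In water 5, Rnu3b1 was at 32.46 CPM with the next water library at 7.969, Scarna6 at 16.3 CPM (next 8.1), Snora57 at 5.863 CPM (next 1.828) and Snord22 at 3.503 CPM (next 1.043). In α-KG 2, Snora57 was at 5.184 CPM (next 3.022), and in α-KG 5, Snord22 was at 3.094 CPM (next 1.679). All 6 were the highest of their group, and 4 of them came from water 5.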

How the results depend on the processing

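No paired analysis was possible because water and α-KG libraries share no number in their titles. Over 19 alternatives, 396 of 414 refitted fold changes of the 22 RNAs kept their sign and their side of the threshold, 17 changed sign and 1 newly passed: Snora73b, the 1 RNA called lower on library totals only. The 15 RNAs that never changed sign include both 7SL rows, Rn7sk, the 4 scaRNAs and every box C/D snoRNA but Rnu3a. On library totals Rmrp was at -0.17, Snora73a at -0.095 and Snora78 at -0.0035, and with limma voom Rmrp was at -0.039. Leaving out 1 library gave -0.17 to 0.39 for Rmrp, -0.14 to 0.49 for Snora73a, -0.20 to 0.42 for Snora78, -0.89 to 0.34 for Rnu2-10, -0.017 to 0.86 for Rnu3a, -0.28 to 0.012 for Rpph1 and -0.45 to 0.19 for Snora74a. Without water 1 and water 5 Snora74a was at 0.11. The cause was not tested. The median of the RNAs stayed between 0.02 and 0.45.

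Counts over all genes depended on the choices. Genes higher in α-KG numbered 361, 117 on library totals, 967 with DESeq2, 225 with limma voom, 0 to 1610 with 1 library left out and 0 without water 1 and water 5. Genes lower numbered 52, 100 with upper-quartile scaling, 1042 on library totals, 154 without the filter, 687 with DESeq2, 0 to 1073 with 1 library left out and 0 without water 1 and water 5. DESeq2 called 10.4% of all genes. It called 1 of the 8 genes of the box H/ACA list and 3 of the 7 genes of 7SK and P-TEFb. It also called 2 of the 19 genes of snRNA gene transcription and 2 non-coding hosts. Library totals called 0 telomerase and Cajal body genes and 1 polymerase III gene. With 1 library left out the counts were 0 to 2 (box H/ACA), 0 to 4 (7SK and P-TEFb), 0 to 1 (RNase P and MRP), 0 to 2 (telomerase and Cajal body), 0 to 1 (polymerase III), 0 to 1 (snRNA gene transcription) and 0 to 4 (hosts). Without water 1 and water 5, RNase P and MRP and telomerase and Cajal body genes gave 0. Depth limited 5 RNAs: Terc, Rnu1b1, Rnu1b2, Snora9 and Snora23 were too low to be tested as single rows.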
